A study of Mus musculus with 2 samples.

Results

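The genes that read and erase N6-methyladenosine (m6A) on mRNA were examined in splenic Treg cells isolated on day 7 after islet transplantation. The 10 genes were chosen by symbol: the YTH readers Ythdf1, Ythdf2, Ythdf3, Ythdc1 and Ythdc2, the IGF2BP readers Igf2bp1, Igf2bp2 and Igf2bp3, and the erasers Fto and Alkbh5. All 10 of them were found among the 20938 genes of the deposited tables, and all had reads in both libraries. One group was 1 library from Foxp3-Mettl14f/+ cKO mice, in which Foxp3-Cre deletes a single floxed copy of the writer gene Mettl14 in cells that express Foxp3. The other group was 1 library from littermate controls, which the methods give as Mettl14f/f and the labels as wild type; the label of the cKO library reads as a Foxp3 knockdown. Recipients were of C57BL/6J background, were made diabetic with streptozotocin and received BALB/c islets under the kidney capsule, without monoclonal antibody treatment. Age and the number of mice behind each library are not given in the sources used here. A magnetic bead kit for CD4+CD25+ cells was used to enrich Treg cells from the spleen after red cell lysis.

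m6A is written on mRNA by the METTL3-METTL14 complex. Its effect on a transcript depends on the proteins that bind it: the YTHDF proteins act in the cytoplasm, where YTHDF2 in particular brings transcripts to deadenylation and decay, YTHDC1 acts in the nucleus on splicing and export, and YTHDC2 carries a helicase domain. The IGF2BP proteins bind and stabilise mRNA, and FTO and ALKBH5 remove the methyl group. In Treg cells the pathway is known for its control of SOCS transcripts and of responses to cytokines. The sequencing measured transcript levels of these genes, not m6A itself.

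A level is the deposited value, namely whole reads divided by 1 size factor per library, and a read was worth 0.967 in the control and 1.14 in the cKO library. The reads summed to 20239325 and 18327535. A log2 change compares the cKO level with the control level after 1 was added to each, and its interval is an exact 95% Clopper-Pearson interval on the reads without that addition. Such intervals cover only the error of counting independent reads and leave out variation between mice and between libraries. They may be too narrow even for counting, because without molecular identifiers reads are not independent molecules. With 1 library per genotype no difference has a replicate check, and the genotype cannot be told apart from anything else that differed between the libraries. Mettl14, the targeted gene, had 948 control and 652 cKO reads, a log2 change of -0.31 (-0.45 to -0.16), and Foxp3 had 1547 and 1361 reads and a log2 change of 0.05 (-0.06 to 0.15). With the median of 16 T cell core genes as reference these changes were -0.07 and 0.29. The changes of those 16 genes themselves ranged from -0.66 to 0.08 on the deposited scale. Fewer cells of a type and less RNA per cell cannot be told apart in these bulk libraries. Of the defining T cell genes all 16 were present, as were 14 Treg genes, but markers of other cells were present too and differed between the libraries. In reads per 1000000 reads of the library (RPM), the T cell genes summed to 3979 in the control and 3048 in the cKO library and the Treg genes to 573 and 593. The 10 B cell markers, all at least 1.5-fold higher in the cKO, summed to 391 and 1993, and the 12 macrophage markers, also all higher, to 1348 and 2737. The sums of 12 granulocyte markers were 12700 and 16259, those of 12 erythroid markers 1983 and 823, and those of 10 progenitor markers 705 and 340. The granulocyte markers did not move together: 2 were at least 1.5-fold higher and 3 lower, with 8 intervals above 0 and 4 below. The 10 CD8 T and NK cell markers, of which 7 were at least 1.5-fold higher, summed to 307 and 571, and 15 cell cycle genes to 4619 and 2795. Of all these genes Mecom, a progenitor gene with 45 control reads, was the one at 0, in the cKO library. The part of these cells in the results below was not tested.

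**Figure D1:**
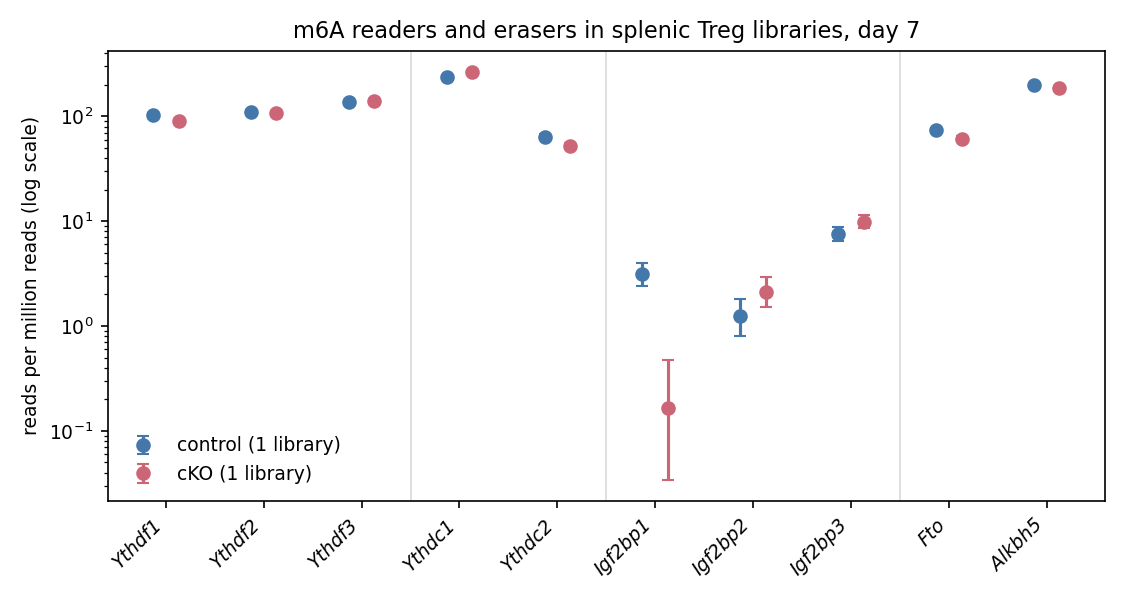
RPM, the reads of a gene per 1000000 reads of its library (log scale), of the 10 reader and eraser genes in the control and the cKO library, 1 point per library, with exact 95% counting intervals; vertical lines separate the YTHDF, YTHDC and IGF2BP readers and the erasers. The YTH readers and erasers lie between 51.9 and 262 RPM in both libraries, the IGF2BP genes at or below 9.93.

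The levels fell into a high and a low set. The 5 YTH readers and both erasers had a mean level of at least 1000, and the 3 IGF2BP readers had mean levels of 32.2 to 177. Levels of different genes were compared per kilobase of exon, with all exons of a gene in GENCODE vM21 joined. By this measure Alkbh5 was highest, with 648 per kilobase in each library. It was followed by Ythdf1 at 608 in the control and 566 in the cKO library, Ythdf3 at 501 and 543, Ythdf2 at 472 and 490, and Ythdc1 at 340 and 400. In the control library the counting intervals of Alkbh5 (628 to 668) and Ythdf1 (582 to 634) overlapped. In the cKO library those of Alkbh5 (626 to 670) and Ythdf1 (539 to 594) did not, whereas those of Ythdf1 and Ythdf3 (523 to 565) did. In the control library Ythdf3 (482 to 520) and Ythdf2 (452 to 492) overlapped. Next came Ythdc2 at 141 and 122 and Fto at 111 and 97.6. Igf2bp3 stood at 18.1 and 25.4, Igf2bp1 at 6.29 and 0.352, and Igf2bp2 at 3.27 and 5.99. The first 8 genes kept their order in both libraries, and Igf2bp1 and Igf2bp2 exchanged the last places. The places of Ythdc1 and Fto depended on the length used, since their joined exons span 13651 and 13031 bases and their longest transcripts 6313 and 4707. Per kilobase of the longest transcript Ythdc1 was highest of the 10, at 735 and 865, and Fto, at 306 and 270, stood above Ythdc2, at 174 and 150.

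The promoters of Ythdc1 and Igf2bp3 are shown as those of an abundant and a scarce reader. They are RefSeq windows on GRCm38.p6 of 300 bases, from 250 before to 50 after the annotated start, at chr5:86804016-86804315 on the plus strand and chr6:49214905-49215204 on the minus strand. Capitals mark GC boxes, the letters GGGCGG or their reverse complement CCGCCC, searched on both strands with overlapping matches counted.
Ythdc1: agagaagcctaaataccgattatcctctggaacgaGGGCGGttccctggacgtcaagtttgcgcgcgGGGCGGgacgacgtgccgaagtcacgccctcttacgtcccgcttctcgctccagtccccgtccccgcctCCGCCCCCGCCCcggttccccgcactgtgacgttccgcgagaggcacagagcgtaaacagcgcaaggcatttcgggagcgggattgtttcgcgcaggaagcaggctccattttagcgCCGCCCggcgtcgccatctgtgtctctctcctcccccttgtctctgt
Igf2bp3: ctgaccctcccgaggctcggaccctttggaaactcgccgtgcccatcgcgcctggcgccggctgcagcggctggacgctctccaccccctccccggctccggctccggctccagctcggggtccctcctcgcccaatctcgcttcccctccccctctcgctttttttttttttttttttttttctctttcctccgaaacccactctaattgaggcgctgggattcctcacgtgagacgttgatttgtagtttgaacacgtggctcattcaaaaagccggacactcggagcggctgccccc
The Ythdc1 window held 5 GC boxes and 35 CpG dinucleotides, and the Igf2bp3 window held 0 and 25. Among all 32851 promoter windows 35.7% held at least 1 GC box, and the median was 7 CpG. RefSeq windows were examined for 7 of the 10 genes, and those of Ythdf3, Ythdc2 and Igf2bp1 were not examined. Igf2bp2, the scarcest gene of the control library, had 2 GC boxes and 47 CpG, more CpG than any other of the 7. The numbers of GC boxes and CpG are descriptions of these windows and did not order the genes by level.

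At a threshold of 1.5-fold, 1 of the 10 genes was higher in the cKO library and 1 was lower, both of them IGF2BP genes. Across all 16659 genes whose mean level reached 1, 17.2% were that much higher and 24.2% that much lower, so these counts among the members do not exceed the background. All 10 members passed this filter. Their log2 changes ranged from -3.81 for Igf2bp1 to 0.85 for Igf2bp2, with a median of 0.028 beside -0.042 over all genes. The counting interval lay above 0 for Ythdf3, Ythdc1, Igf2bp2 and Igf2bp3, below 0 for Ythdf1, Ythdc2, Igf2bp1 and Fto, and held 0 for Ythdf2 and Alkbh5. The share of all genes whose interval left out 0 was not computed, so these counts are not read as a trait of the members. Of the 16 T cell core genes 15 had intervals below 0 and 1 above, and of the 15 cell cycle genes all 15 lay below. Of the 7 members whose mean level reached 1000, 0 passed 1.5-fold in either direction, beside 15.2% of the 4897 genes at that level. Their changes lay between -0.21 and 0.24, and the middle 50% of genes at that level between -0.17 and 0.29. The level classes were chosen after the levels were seen. The reads of 14863 genes were also given an exact binomial test, two-sided, whose subject is these 2 libraries rather than the genotypes. It called 14.8% of them higher and 17.6% lower at 1.5-fold and an adjusted p under 0.1. Among the members it called Igf2bp2 higher and Igf2bp1 lower. When edgeR's exact test was given an assumed coefficient of variation between replicates of 0.2 or 0.4, Igf2bp1 was still called lower and Igf2bp2 was not called.

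**Figure D2:**
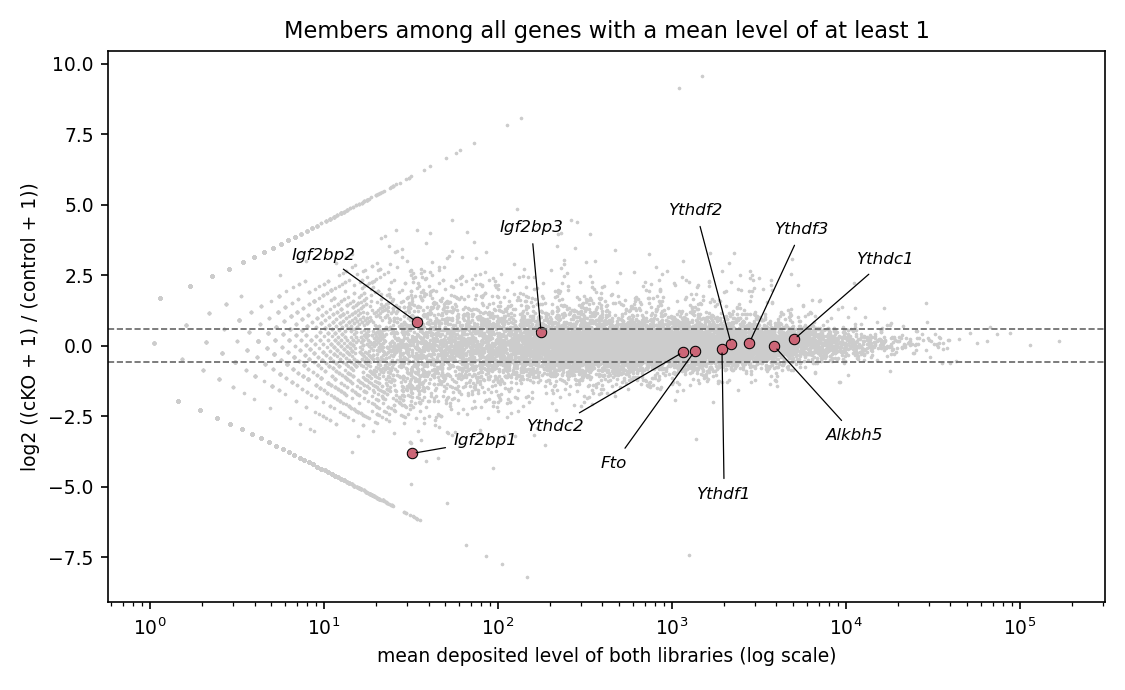
The log2 change (vertical axis) against the mean deposited level of both libraries (horizontal axis, log scale) for the 16659 genes whose mean level reached 1 (grey points), with the 10 members in red and 1.5-fold as dashed lines. The 7 abundant members sit inside the dashed lines, Igf2bp1 at -3.81 below them and Igf2bp2 at 0.85 above.

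**Figure D3:**
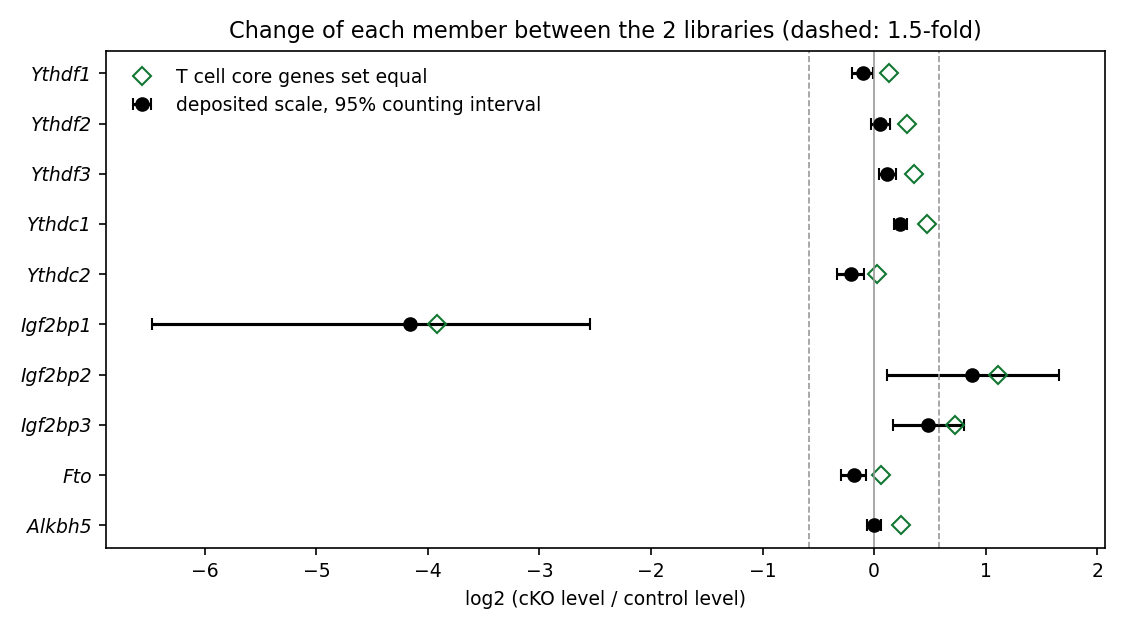
The log2 ratio of the cKO to the control level of each member without pseudocount (black points, with exact 95% counting intervals) and the same ratio with 16 T cell core genes set equal between the libraries (green diamonds). On the deposited scale 4 intervals lie above 0 and 4 below, counts for which the share over all genes was not computed. On the scale of the T cell core genes every point except that of Igf2bp1 is above 0.

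Among the YTHDF readers, which share the cytoplasm and much of their sequence, Ythdf1 held a smaller share of the reads in the cKO library and Ythdf3 a larger one. Ythdf1, at chr2:180904377-180920949 of GRCm38 (minus strand), had 2083 control and 1651 cKO reads. Its log2 change was -0.10 (-0.20 to -0.0082) on the deposited scale and 0.14 with the T cell genes as reference. Ythdf2, the reader best known for mRNA decay, lies at chr4:132184912-132212303 (minus strand) and had 2230 and 1972 reads. Its change of 0.06 (-0.03 to 0.14) could not be told from 0 at this depth, and was -0.03 when scaled by library totals. Ythdf3, at chr3:16183212-16217037 (plus strand), had 2776 and 2563 reads and a change of 0.12 (0.04 to 0.20). Summed over the 3 genes the level was 6858 in the control and 7034 in the cKO library, a change of 0.04 (-0.01 to 0.09). A share of reads within a library does not depend on the size factors. Ythdf1 held 29.4% (95% exact Clopper-Pearson interval 28.3 to 30.5) of the family's reads in the control and 26.7% (25.6 to 27.8) in the cKO library. Ythdf3 held 39.2% (38.0 to 40.3) and 41.4% (40.2 to 42.7), and Ythdf2 31.5% (30.4 to 32.6) and 31.9% (30.7 to 33.1). The odds ratio between the libraries was 0.875 (0.810 to 0.945) for Ythdf1 and 1.10 (1.02 to 1.18) for Ythdf3, and for Ythdf2 it was 1.02 (0.947 to 1.10). Of the distinct 50-base stretches in the transcripts of Ythdf2, 7.49% also occur in transcripts of the genes Gm6823 and Gm8401, so part of its reads could have been split by the counting, while Ythdf1 and Ythdf3 share 0%.

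The YTHDC readers differed relative to each other, with more Ythdc1 per Ythdc2 in the cKO library. Ythdc1, the nuclear reader and the member with the most reads, lies at chr5:86804221-86836659 (plus strand) and is the gene of the first promoter above. It had 4795 control reads and 4804 cKO reads, although the cKO library was the smaller, and its log2 change was 0.24 (0.18 to 0.29). Ythdc2, at chr18:44827746-44889724 (plus strand), had 1294 and 951 reads and a change of -0.21 (-0.33 to -0.09), or 0.03 with the T cell genes as reference. The share of Ythdc1 in the reads of this pair was 78.7% (77.7 to 79.8) in the control and 83.5% (82.5 to 84.4) in the cKO library, an odds ratio of 1.36 (1.24 to 1.50). These intervals do not overlap, so the difference exceeds the error of counting independent reads whatever the scaling. Both changes were smaller than 1.5-fold. The joined exons of Ythdc1 share 4.62% of their bases with the noncoding gene Gm43055 on the same strand. All 5 YTH genes together held 651 RPM in the control and 652 in the cKO library, that is, relative to library totals. On the deposited scale their summed level was 12748 and 13579, a change of 0.09 (0.06 to 0.13). Within that sum Ythdc1 took 36.4% (35.6 to 37.2) of the control reads and 40.2% (39.3 to 41.1) of the cKO reads.

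**Figure D4:**
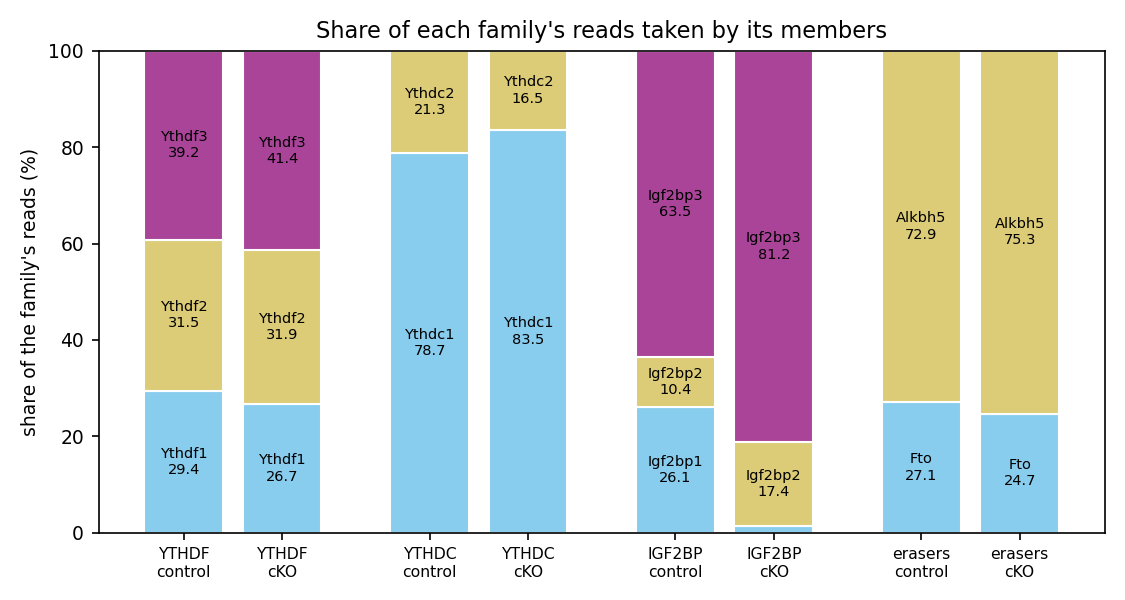
Share of reads (%) that each gene holds within the YTHDF, YTHDC and IGF2BP readers and the erasers, as stacked bars for the control and the cKO library. Igf2bp1 goes from 26.1% to 1.34% of the IGF2BP reads, the largest shift among these 4 families. The shares of Igf2bp3 and Igf2bp2 rise by 17.8 and 7.04 percentage points. The shifts of the YTH readers and erasers, the abundant genes, are under 5 percentage points.

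The IGF2BP readers were scarce in both libraries and differed most between them. Igf2bp1, an oncofetal mRNA-binding protein gene that is largely silent in adult tissue, lies at chr11:95957163-96005940 (minus strand). It had 63 control reads and 3 cKO reads, which correspond to levels of 60.9 and 3.41. The ratio without pseudocount was -4.16 on the log2 scale (-6.47 to -2.55). At the floor of 3 reads the cKO value carries little information on its size, but the upper end of the interval, a ratio of 0.171, lay far below 1.5-fold. Among genes of similar read number, a range chosen after the values were seen, such pairs were few. Of 608 genes with 50 to 79 control reads, 19 (3.13%) had at most 3 cKO reads, and 16 of these had 0. In the other direction 7 of 580 genes (1.21%) with 50 to 79 cKO reads had at most 3 control reads. Among the 4531 genes with a mean level of 10 to 250, 30.6% were at least 1.5-fold lower and 24.9% higher by as much in the cKO library, so a 1.5-fold change alone was common at the level of these 3 genes.

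Igf2bp2, at chr16:22059009-22163299 (minus strand), had 25 control and 39 cKO reads, a change of 0.85 (0.11 to 1.66). It was the member past 1.5-fold in the upward direction, on few reads and with an interval that reaches close to 0. Igf2bp3, at chr6:49085223-49214957 (minus strand) and the gene of the second promoter above, had 153 and 182 reads and a change of 0.48 (0.17 to 0.80), under 1.5-fold. Of the joined exon bases of Igf2bp3, 18.7% overlap Malsu1, which lies on the opposite strand and encodes a factor of the mitochondrial ribosome. Malsu1, named after its values were seen, had 174 and 192 reads and a change of 0.37 (0.07 to 0.68). Strand use in counting is not given in the sources used here, so the reads of Igf2bp3 and Malsu1 cannot be fully told apart. Together the 3 IGF2BP genes had 241 and 224 reads, 11.9 and 12.2 RPM, and the summed change was 0.13 (-0.14 to 0.40). The summed level thus did not differ detectably, whereas the makeup did. Igf2bp1 held 26.1% (20.7 to 32.2) of these reads in the control and 1.34% (0.277 to 3.86) in the cKO library. Igf2bp3 went from 63.5% (57.1 to 69.6) to 81.3% (75.5 to 86.1) and Igf2bp2 from 10.4% (6.83 to 14.9) to 17.4% (12.7 to 23.0).

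Erythroid, progenitor and cell cycle genes were lower in the cKO library together with Igf2bp1, and so, by less, were the T cell core genes. Of these 16 genes 2 were at least 1.5-fold lower and 15 had intervals below 0, with a median of -0.24. Of 12 erythroid markers 11 were at least 1.5-fold lower, with a median change of -1.16, and of 10 progenitor markers 9 were, with a median of -0.83. Changes among the erythroid markers ranged from -1.56 to 0.05. The lowest progenitor marker was Mecom, with 45 and 0 reads and an interval whose upper end was -3.32. Tal1, at -3.30 from 2586 and 222 reads, and Hoxa9, at -2.01 from 60 and 12 reads, came next. Flt3 went the other way, with 714 and 827 reads and a change of 0.44 (0.30 to 0.59). The change of Tal1, named after its value was seen, lay inside the interval of Igf2bp1 (-6.47 to -2.55), which is wide and rests on 3 cKO reads. Apart from Mecom and Tal1, all the progenitor markers had changes above that interval. So did all the erythroid markers and all the cell cycle genes. Of 15 cell cycle genes 11 were at least 1.5-fold lower too, and all 15 had intervals below 0, with a median of -0.61. Igf2bp1 had 1.57 reads per 1000 erythroid marker reads in the control and 0.199 in the cKO library, a log2 ratio of -2.98 (-5.30 to -1.37). Per 1000 progenitor marker reads it had 4.41 and 0.481, a log2 ratio of -3.20 (-5.51 to -1.58). Per 1000 cell cycle reads it had 0.674 and 0.0586, a log2 ratio of -3.52 (-5.84 to -1.91). These ratios are set against list sums, in which abundant genes weigh most, and the part of these cells in the level of Igf2bp1 was not tested. Igf2bp3, in contrast, had 3.81 reads per 1000 erythroid marker reads in the control and 12.1 in the cKO library. Per 1000 B cell marker reads it had 19.3 and 4.98. The direction for Igf2bp3 thus depended on the list. Its log2 ratio was 1.66, 1.44, 0.78 and 1.12 against the erythroid, progenitor, T cell core and cell cycle lists. Against the macrophage and B cell lists it was -0.63 and -1.95, and every one of these intervals left out 0. The ratio of Igf2bp1 was below 0 against each of these lists, at -3.86 against the T cell core genes.

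The erasers were both abundant, and Fto held a slightly smaller share of their reads in the cKO library. Fto, at chr8:91313525-91668439 (plus strand), encodes a demethylase also known from studies of body weight. It had 1491 control and 1118 cKO reads, a change of -0.18 (-0.30 to -0.07), or 0.06 with the T cell genes as reference. Alkbh5, at chr11:60536381-60558512 (plus strand), had 4011 and 3411 reads. Its levels of 3880 and 3879 were the closest pair among the 10 genes, with a change of -0.00050 (-0.07 to 0.07) on the deposited scale. The change was 0.24 with the T cell genes as reference and -0.09 by library totals, both outside that interval. Fto held 27.1% (25.9 to 28.3) of eraser reads in the control and 24.7% (23.4 to 26.0) in the cKO library, with an odds ratio of 0.882 (0.805 to 0.966). The intervals of the separate shares overlapped slightly, while that of the odds ratio lay below 1. The summed eraser level was 5323 in the control and 5150 in the cKO library, a change of -0.05 (-0.10 to 0.0095). On the opposite strand Gm45427 overlaps 2.33% and 4831440D22Rik 1.11% of the joined exon bases of Fto.

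Ratios between members within a library do not depend on scaling, and 45 pairs were compared. In 35 of them the 95% interval of the change in ratio left out 0, without correction for the number of pairs. Of the 21 pairs formed by the 7 abundant genes 15 did so. Pairs of other genes with similar read numbers were not counted in this way. Neither count is therefore read as a trait of the members. For scale, the log2 changes of all genes whose mean level reached 1000 had an SD of 0.51. Among the 7 abundant members the widest gap was that between Ythdc1 and Ythdc2. Their ratio was higher in the cKO library by 0.45 on the log2 scale (0.31 to 0.58), followed by Ythdc1 against Fto at 0.42 (0.29 to 0.55). The interval held 0 in the other 6 of these 21 pairs. They were Ythdf1 against Ythdc2 at 0.11 (-0.05 to 0.26), against Fto at 0.08 (-0.07 to 0.23) and against Alkbh5 at -0.10 (-0.22 to 0.01), so Ythdf1 could not be told from these genes. The others were Ythdc2 against Fto at -0.03 (-0.20 to 0.14), Ythdf2 against Ythdf3 at -0.06 (-0.18 to 0.06) and Ythdf2 against Alkbh5 at 0.06 (-0.05 to 0.17).

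The rest of the pathway was read from lists written from general knowledge, to be set beside the 17.2% of all genes higher, the 24.2% lower and the median of -0.042. Of 12 writer genes 0 were at least 1.5-fold higher and 1 lower, with a median change of -0.07, and 6 had intervals below 0 against 2 above. Virma, a scaffold of the writer complex and its most abundant gene here, had 3801 and 3381 reads and a log2 change of 0.06. Mettl5, which methylates ribosomal RNA, was the gene past 1.5-fold, with 316 and 151 reads and a change of -0.83 (-1.12 to -0.55). Mettl3, the catalytic subunit, had 1192 and 704 reads and a change of -0.53 (-0.66 to -0.39), below the threshold. Of 13 other proteins reported to bind m6A or to be repelled by it, 0 passed 1.5-fold, and the median was -0.17. Hnrnpa2b1, a nuclear RNA-binding protein and the most abundant of them, had 21396 and 15087 reads and a log2 change of -0.27. Of 14 partners of the readers with a mean level of at least 1, out of 15 listed, 1 was lower past 1.5-fold and 0 higher, with a median of -0.08. This was Meioc, a meiotic partner of YTHDC2, with 13 control and 0 cKO reads and an interval whose upper end was -1.37. Rbm46, the other meiotic partner, had 0 reads in both libraries. With a floor of 3 reads this allows up to 0.148 RPM in the control and 0.164 in the cKO library. Pabpc1, the cytoplasmic poly(A)-binding protein, was the most abundant partner with 34206 and 31078 reads and a log2 change of 0.09.

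Among 7 relatives of ALKBH5 in the AlkB family, 2 were at least 1.5-fold lower and 0 higher, with a median of -0.14. These were the DNA repair gene Alkbh2, with 112 and 54 reads and a change of -0.81 (-1.32 to -0.34), and the mitochondrial Alkbh7, with 77 and 39 reads and a change of -0.74 (-1.34 to -0.17). Alkbh8, a tRNA-modifying enzyme and the most abundant of the family list, had 993 and 679 reads and a log2 change of -0.31. A list of 10 oncofetal and fetal growth genes was set beside Igf2bp1, and 9 of them were found. Of these 5 were at least 1.5-fold lower in the cKO library and 1 higher, with a median of -0.82. Lin28b, which blocks let-7 maturation, had 25 and 0 reads and an interval whose upper end was -2.42. The chromatin gene Hmga1 had 559 and 149 reads and a change of -1.67 (-1.94 to -1.41), Igf2 22 and 7 reads and -1.31 (-2.89 to -0.14), and Hmga2 49 and 23 reads and -0.83 (-1.64 to -0.12). Dlk1 had 32 and 15 reads with an interval that held 0 (-1.85 to 0.07). In the other direction Arid3a, the most abundant gene of the list, had 2143 and 2641 reads and a change of 0.53, and Lin28a had 338 and 401 reads and a change of 0.48, both under 1.5-fold. Mest, named after its values were seen, had 55 and 76 reads and a change of 0.69 (0.18 to 1.23).

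**Figure D5:**
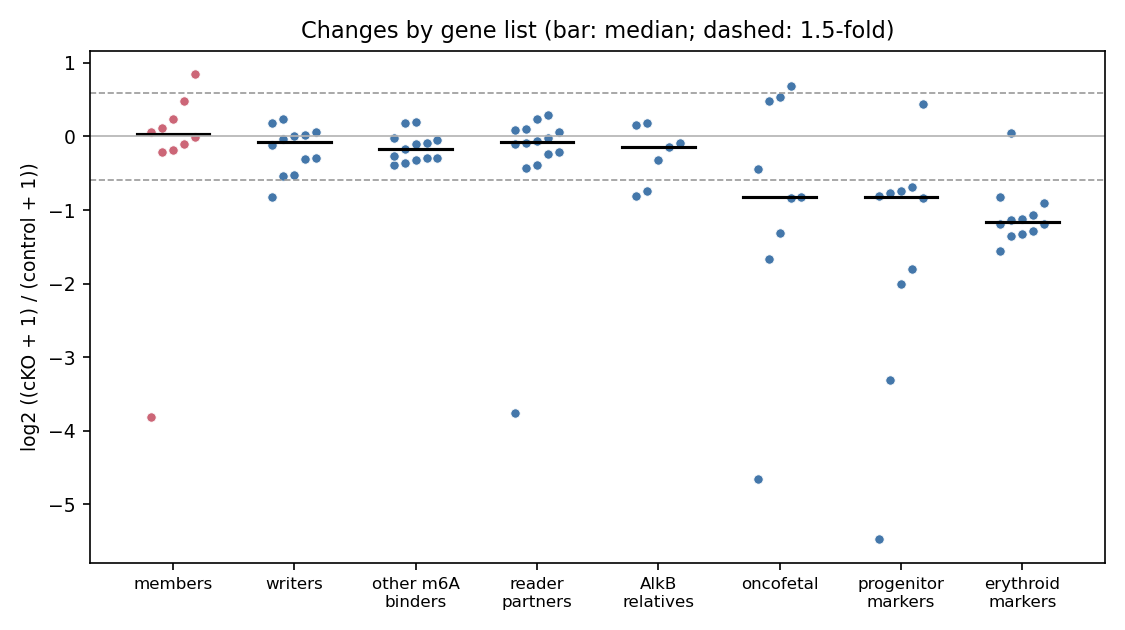
The log2 change between the libraries for each gene with a mean level of at least 1 (points), by list, with the median as a black bar and 1.5-fold as dashed lines. The members and the writers, binders, partners and AlkB relatives have medians between -0.17 and 0.028, while the oncofetal, progenitor and erythroid lists have medians of -0.82, -0.83 and -1.16.

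The direction of the small changes depended on the scale. When the levels were rescaled so that the median of 16 T cell core genes was 0, which shifted all values by 0.24 and the median of all genes to 0.20, Igf2bp3 passed 1.5-fold at 0.72 beside Igf2bp2 at 1.08. On that scale Ythdf1 was at 0.14, Ythdc2 at 0.03 and Fto at 0.06, each opposite in sign to its value on the deposited scale, and Ythdc1 was at 0.48. Igf2bp1 was lower on every scale tried, at -3.60 with this scaling. The shares within families and the ratios between members given above are the same on every scale. Neither the shares nor the ratios were set against those of other genes of like level.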

How the data were processed

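RNA-seq was performed on 1 control and 1 cKO library of splenic Treg cells. The authors aligned reads to mm10 with TopHat per the methods; the submitters' processing notes also name bcl2fastq 2.0, STAR, StringTie and DESeq2. The counting tool, its settings and the annotation are not given in the sources used here. The authors deposited a signal in which whole reads were scaled by a single factor in each library, as 100% of the values were whole multiples of the smallest within 0.01 reads. Changes used log2 of the deposited value plus 1, a minimum mean of 1 and the 1.5-fold threshold of the methods. The exact binomial test on recovered reads used totals scaled by TMM, a minimum of 10 reads and Benjamini-Hochberg adjustment. It called 2197 genes higher and 2617 lower. The intervals and this test were run on simulated counts with counting error only. Such counts hold no duplicate reads and no variation between libraries, so they do not show how either behaves in these data. For 20490 of 20938 symbols GENCODE vM21 held a single match. All members were named, and of each list the most abundant gene and up to 5 genes past 1.5-fold with at least 10 reads. Mecom, Tal1, Hoxa9, Flt3, Mettl3, Rbm46, Lin28a, Malsu1 and Mest were added after their values were seen. The members and lists were chosen with earlier results of these data known. Python 3.11.15, scipy 1.17.1, R 4.3.3, edgeR 4.0.16 and DESeq2 1.42.0 were used. Alternatives were other pseudocounts, filters, scalings, thresholds and count tests.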

Additional observations from a re-analysis of the deposited data

How the results depend on the processing

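Igf2bp1 was at least 1.5-fold lower under every alternative tried. No paired analysis was possible because a single library stood for each genotype, and for the same reason no library could be left out. Under the T cell core scaling 2 members were at least 1.5-fold higher, the median of the members was 0.27, and 4198 genes were higher and 3336 lower, which put 55.7% of changed genes on the higher side in place of 41.6% (2864 and 4028 genes). The balance turned as well with a minimum mean of 10, which left 2112 higher and 2035 lower genes (50.9% higher), and with only genes above 0 in both libraries, which left 2182 and 1904 (53.4% higher). With a 2-fold threshold 1722 genes and 0 members were higher. The exact binomial test, over 14863 genes, gave 2617 lower genes. edgeR's exact test gave 931 higher and 1488 lower genes and 0 higher members with an assumed coefficient of variation of 0.2, and 229, 569 and 0 with 0.4. Read per kilobase of joined exons, the share of Ythdf1 in the YTHDF family was 38.5% in the control and 35.4% in the cKO library, that of Ythdf2 29.9% and 30.7%, that of Ythdf3 31.7% and 34.0%, and that of Fto among erasers 14.6% and 13.1%. Pseudocounts of 0.1 and 5, the filters, and median-of-ratios and TMM scaling kept all 10 member changes within their counting intervals. Library totals moved 4 of them and the T cell core genes 7. The floor of 3 reads and the single library per genotype limit what can be said of Igf2bp1 and Igf2bp2.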
